A study of Mus musculus with 18 samples.

Results

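The lecticans and the perineuronal type of neural matrix are described here through 9 of the 55416 genes measured. They were taken from a fixed list of symbols: Acan, Bcan, Ncan and Vcan, Tnr, Hapln1, Hapln2 and Hapln4, and Cd44. RNA came from mouse optic nerve head cut out of sections by laser capture, the place where the axons of retinal ganglion cells gather and leave the eye. The B6.EDA+/+ strain gave 3 libraries and the C57BL/6J strain 5 at 22 months of age, and each strain gave 5 at 12 months. B6.EDA+/+ mice are known for transcripts of fibronectin that always hold the extra domain A (EDA) exon, and C57BL/6J mice served as controls. The study set the strains side by side at both ages to look at fibrotic and inflammatory change in this tissue. The labels give no sex, litter or batch, and do not say whether each library came from its own animal, so each p-value here measures spread among libraries only, some of it possibly technical.

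As background, lecticans are chondroitin sulfate proteoglycans of brain and nerve matrix: aggrecan (Acan), brevican (Bcan), neurocan (Ncan) and versican (Vcan). One end of each binds hyaluronan, a long sugar chain, and link proteins (the Hapln genes) hold that bond, while tenascin-R (Tnr) joins the other ends together. Around certain neurons this lattice forms perineuronal nets, rich in aggrecan and Hapln1, and in white matter versican V2, brevican and Hapln2 are known at the nodes of Ranvier. CD44 is a hyaluronan receptor on the cell surface, found among other cells on astrocytes of fibre tracts.

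Versican messages differ in which of a pair of long exons they hold, each of which carries chondroitin sulfate attachment sites. The GENCODE M21 transcripts of GRCm38 place Vcan on the minus strand of chromosome 13, with the alpha exon (exon 7, chr13:89702918-89705797, 2880 nt) and the beta exon (exon 8, chr13:89688285-89693501, 5217 nt), both within the coding region. The junctions below tell the 4 full-length forms apart in the annotation. Reads across them were not counted, and the versican shares given later are estimates over whole transcripts. The junctions are read 5′ to 3′ from the GENCODE transcripts, and capitals mark the 20 bases after the junction.
V0: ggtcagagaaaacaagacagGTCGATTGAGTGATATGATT
V1: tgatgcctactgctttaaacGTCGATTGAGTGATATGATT
V2: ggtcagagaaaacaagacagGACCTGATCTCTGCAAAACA
V3: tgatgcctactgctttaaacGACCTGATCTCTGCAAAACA
V0 and V2 share the end of the alpha exon before the junction, and V0 and V1 share the start of the beta exon after it. V3 joins the exons on either side of both, and so holds neither attachment region.

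The Cd44 messages divide in a similar way, since a block of variable exons can be left out. In the form with constant exons only, Cd44-203, the last constant exon before the block joins the first one after it, and in a form with variable exons the same exon joins a variable exon of 207 nt. Both junctions lie on the minus strand of chromosome 2 in GRCm38, and capitals again mark the 20 bases after the junction.
Cd44 constant: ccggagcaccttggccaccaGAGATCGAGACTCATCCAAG
Cd44 variable: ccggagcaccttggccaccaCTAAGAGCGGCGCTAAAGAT

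Several features of the libraries bear on every comparison. Their totals ran from 13097498 to 18488733 expected counts, the number of reads that RSEM assigns to each gene. A single gene without a symbol, ENSMUSG00000119584, took a large and uneven part of these totals. Its share was 3.26% to 17.27% in EDA-labelled libraries and 10.72% to 32.85% in control-labelled ones, so it was not balanced between labels. Runs with this share as a covariate are given below. The fibronectin EDA exon, as RSEM estimates it from isoforms, did not follow the labels. Among the Fn1 isoforms that span it, its share ran from 0 to 58.5% in the 8 EDA-labelled libraries (median 4.1%). In the 10 control-labelled ones it ran from 0 to 100% (median 4.45%). These shares rest on 67 to 1485 Fn1 counts per library, and whether the labels or the estimates are at fault was not tested. Libraries are therefore called EDA-labelled and control-labelled. Checked against the tissue label, 9 of 12 astrocyte markers had reads in all libraries, and their summed level was 7290.3 to 38821.7 CPM (counts scaled to a common library size). Summed myelin markers ranged more widely, from 341.8 to 30772.2 CPM, and photoreceptor markers reached 2738.3 CPM in control 22-month replicate 2, against 3.7 to 98.8 CPM in the others. Xist was abundant in 5 libraries: EDA 22-month replicate 1, EDA 12-month replicates 4 and 5, and control 12-month replicates 1 and 2. Y-linked genes were at 0 to 0.08 CPM in these. In the others they were at 78.09 to 151.13 CPM, with Xist at 2.6 CPM or less. The 5 include no control of 22 months, so comparisons with that group are not balanced in these sex-linked genes. In bulk RNA of this kind, fewer cells of a type and less RNA per cell cannot be told apart.

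Among the 9 members, RNA of brevican and versican was highest in these optic nerve heads, followed by CD44 and some neurocan, with no aggrecan detected. Levels between genes are compared in TPM, a relative abundance that allows for transcript length. Over the 18 libraries the median was 23.3 TPM for Bcan, 9.3 for Vcan, 6.18 for Cd44, 1.82 for Ncan, 0.83 for Hapln2 and 0.33 for Tnr, and 0 for Hapln4, Acan and Hapln1. Bcan was above Vcan in 18 of 18 libraries, Vcan above Cd44 in 15 of 18, and Cd44 above Ncan in 14 of 18. The neighbours further down did not separate: Ncan was above Hapln2 in 11 libraries and below it in 6, and Hapln2 was above Tnr in 8 and below it in 6. The same order came from FPKM, the other length-scaled unit in the files, and from log2 values.

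**Figure D1:**
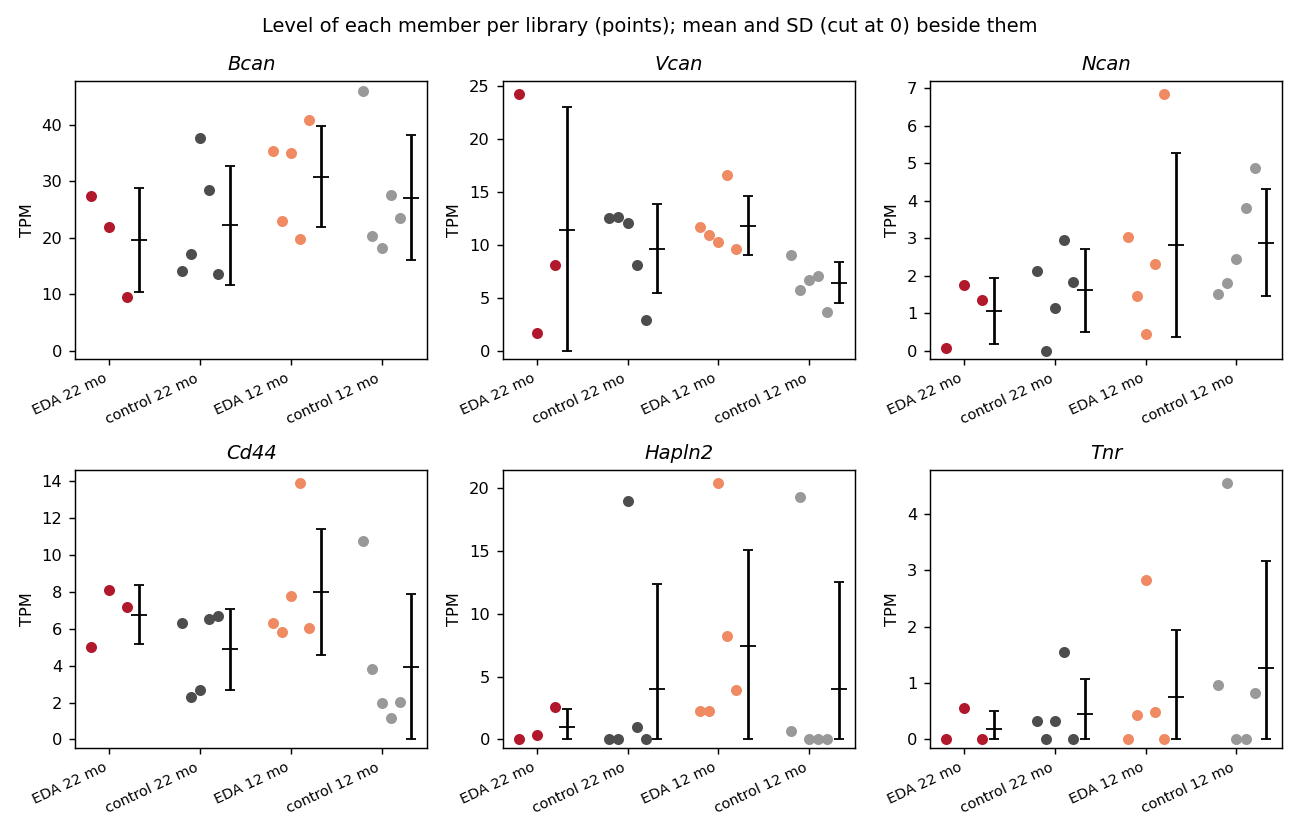
TPM of the 6 members found in most libraries, 1 panel per gene, with groups along the horizontal axis; each point is a library, and the bar beside the points is the mean with its SD, cut at 0. Bcan lies between 9.46 and 45.95 TPM with overlapping groups, while single libraries stand far above the rest for Hapln2 and Tnr.

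Among the lecticans, Acan, the proteoglycan that defines perineuronal nets, had 0 counts in all 18 libraries. A count of 0 allows up to 3 counts, which is 0.162 to 0.229 CPM depending on the library and covers counting error only, since amplified reads are not independent molecules. Brevican made up 67.6% ± 11 of the summed lectican TPM, versican 26.1% ± 12.4 and neurocan 6.3% ± 4.1 (SD, n = 18). The lectican level in sum averaged 32 ± 17.4 TPM (SD, n = 3) under the EDA label and 33.4 ± 12.3 TPM (SD, n = 5) under the control label at 22 months. At 12 months the averages were 45.4 ± 8.8 TPM under the EDA label and 36.4 ± 12.1 TPM under the control label (SD, n = 5 each). The groups overlapped at both ages.

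**Figure D2:**
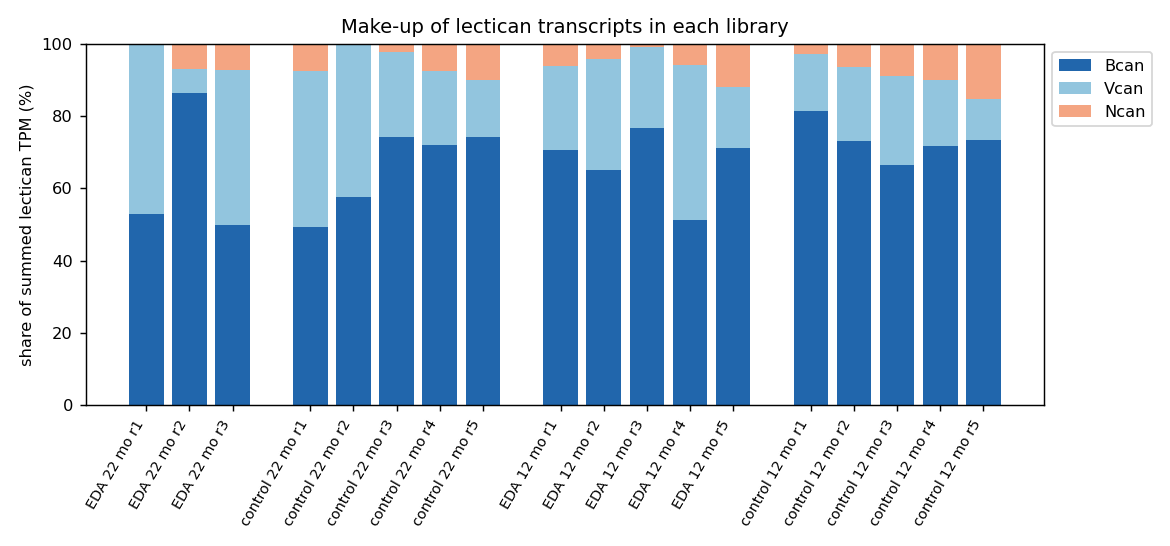
Share of the summed lectican TPM taken by Bcan, Vcan and Ncan in each library, in percent, with libraries in 4 blocks by label and age; Acan is at 0 in all of them. Bcan takes 49.3% to 86.3%, and the versican share is 6.8% to 46.8%.

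Bcan (chromosome 3, GRCm38) was the most even member. It had 27.5, 21.8 and 9.46 TPM in EDA-labelled libraries at 22 months, against 14.2, 17.1, 37.7, 28.4 and 13.6 TPM in control-labelled libraries. At 12 months it had 35.4, 23, 35, 19.9 and 40.9 TPM in EDA-labelled libraries, against 46.0, 20.4, 18.1, 27.6 and 23.6 TPM in control-labelled libraries. The highest library was a 12-month control and the lowest an aged EDA-labelled one, and the label groups overlapped at each age.

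Differences between groups were tested with edgeR's quasi-likelihood test on rounded expected counts, fitted over 15118 genes, with Benjamini-Hochberg adjustment over all of them and a threshold of 0.05. In Bcan, the EDA-labelled libraries differed from control-labelled ones by a log2 fold change of -0.36 ± 0.37 (SE) at 22 months and 0.25 ± 0.32 at 12 months. Averaged over both ages the difference was -0.06 ± 0.24, the smallest error among the members. The 6 comparisons were EDA over control at 22 months, at 12 months and averaged, 22 over 12 months under each label, and the interaction of label and age. No member was called in any of them with edgeR, DESeq2 or limma voom, and the share of all genes called with edgeR was 0% in each. In the edgeR fit over the 15118 genes, members at an unadjusted p under 0.05 also numbered 0 in all 6.

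At that unadjusted threshold, 2.09% of all genes were higher and 1.87% lower at 22 months, 2.96% and 1.59% at 12 months, and 2.75% and 2.01% with the ages averaged. With age, 2.6% were higher and 2.38% lower under the EDA label, and 2.14% and 1.37% under the control label. For the interaction the shares were 1.54% above and 2.48% below 0. DESeq2 gave Bcan with age under the EDA label and Cd44 between labels at 12 months an adjusted p of 0.697 and 0.914.

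On the log2 CPM scale of the test, a member's groups stood apart in a single comparison, brevican with age in the EDA-labelled libraries. There Bcan averaged 5.09 ± 0.19 at 22 months (SD, n = 3) and 5.77 ± 0.39 at 12 months (SD, n = 5), and all 3 aged libraries lay below all 5 younger ones. Groups did not overlap in this comparison for 4.48% of all genes tested. In TPM the same groups did overlap, since EDA 22-month replicate 1 had 27.5 TPM and EDA 12-month replicate 4 had 19.9 TPM. The fitted difference was -0.71 ± 0.37 (edgeR, adjusted p = 0.961), so it did not pass. Under the control label the age groups overlapped for every tested member, while 0.556% of all genes had groups apart, and Bcan had a difference of -0.09 ± 0.32. The difference between the age effects was -0.61 ± 0.49 (edgeR, adjusted p = 1).

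Versican (Vcan, chromosome 13) was the second lectican and had single libraries at both extremes at 22 months. It had 24.2, 1.72 and 8.11 TPM in EDA-labelled libraries at that age, against 12.5, 12.6, 12.0, 8.1 and 2.94 TPM in control-labelled libraries. At 12 months EDA-labelled libraries had 11.7, 10.9, 10.3, 16.6 and 9.6 TPM, against 9.0, 5.71, 6.67, 7.07 and 3.66 TPM in control-labelled libraries. In TPM all 5 EDA-labelled libraries of 12 months were above all 5 control-labelled ones. TPM groups stood apart in this way, in either direction, for 1.76% of all genes tested. In CPM, the scale of the test, the Vcan groups overlapped. CPM groups stood apart for 1.26% of all genes at 12 months, and for 3.48% at 22 months. TPM also depends on the isoforms that RSEM assigns, and partial transcript models, all shorter than the full-length forms, took 43.3% ± 29.8 of Vcan TPM under the EDA label and 37.8% ± 20.6 under the control label at 12 months (SD, n = 5 each).

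The fitted log2 fold change of Vcan between labels was 0.21 ± 0.55 at 22 months and 0.49 ± 0.48 at 12 months (edgeR, adjusted p = 1 for both). With age it was 0.24 ± 0.55 under the EDA label and 0.52 ± 0.48 under the control label. The first value moved with single libraries. In the EDA-labelled group replicate 2 had 109 Vcan counts and replicates 1 and 3 had 821 and 788. Without replicate 2 the 22-month difference was 0.70 ± 0.50, without replicate 1 it was 0.07 ± 0.64, and without replicate 3 its sign turned, to -0.35. Without control 22-month replicate 5 it was 0.04. An antisense gene, Gm4117, lies in the Vcan locus with up to 304 counts, and since the library kit keeps no strand, reads where they overlap cannot be assigned with certainty.

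Neurocan (Ncan, chromosome 8), known as the lectican most abundant in developing brain, was low and uneven. It had 0.08, 1.74 and 1.36 TPM in EDA-labelled libraries at 22 months, against 2.13, 0, 1.14, 2.94 and 1.83 TPM in control-labelled libraries. At 12 months it had 3.04, 1.47, 0.44, 2.3 and 6.85 TPM in EDA-labelled libraries, against 1.5, 1.81, 2.44, 3.81 and 4.86 TPM in control-labelled libraries. The library without any Ncan count, control 22-month replicate 2, was the one with the photoreceptor markers and had the second lowest Cd44 count (32). The library with 6 counts, EDA 22-month replicate 1, held the most skeletal muscle markers, 261.6 CPM against at most 10.6 CPM in the others. The part of other tissue in these values was not tested.

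Ncan averaged lower at 22 months than at 12 months under both labels, without passing the test. The log2 fold change with age was -1.06 ± 1.09 under the EDA label and -0.86 ± 0.91 under the control label (edgeR, adjusted p = 1 for both). Leaving out 1 library at a time moved these values between -1.59 and -0.44 under the EDA label and between -1.09 and -0.54 under the control label. The values nearest 0 were those without EDA 12-month replicate 5 (-0.44), EDA 22-month replicate 1 (-0.50) and control 22-month replicate 2 (-0.54). Between labels it was -0.44 ± 1.06 at 22 months and -0.24 ± 0.91 at 12 months. Without EDA 22-month replicate 1 the 22-month difference was 0.11. With errors of about 1 log2 unit, changes of that size were not detectable given the spread between these libraries.

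The cross-linker and the link proteins were sparse. Hapln1, the link protein of perineuronal nets, had 0 counts in all 18 libraries, and Hapln4 had 2 counts in EDA 22-month replicate 2, 4 in EDA 12-month replicate 5 and 0 elsewhere. Neither passed the filter on low counts, nor did Acan, so 6 of 9 members entered the tests. In the genome each lectican lies beside a link protein gene with no coding gene between them: Bcan is 21519 bases from Hapln2, Vcan 43659 from Hapln1 and Ncan 2222 from Hapln4 in GRCm38. These neighbours were unlike in level, since Vcan and Ncan were read in most libraries while Hapln1 was at 0 and Hapln4 nearly so.

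Hapln2, also called Bral1 and known from nodes of Ranvier in white matter, was the link protein that was found. It had 0, 8 and 68 expected counts in EDA-labelled libraries at 22 months, against 0, 0, 272, 23 and 0 in control-labelled libraries. At 12 months it had 24, 19, 377, 153 and 19 counts in EDA-labelled libraries, against 17, 294, 0, 0 and 0 in control-labelled libraries. All 5 EDA-labelled libraries of 12 months held reads, but 3 of 5 control-labelled ones at each age did not.

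The 3 libraries with the most Hapln2 were also the 3 with the most myelin marker RNA. They were EDA 12-month replicate 3, control 12-month replicate 2 and control 22-month replicate 3, with 9216.4 to 30772.2 CPM summed over 12 myelin markers and 272 to 377 Hapln2 counts. The other 15 libraries had 341.8 to 7493.8 CPM of those markers and 0 to 153 Hapln2 counts, and 7 of them had none. The part of myelinated tissue in the Hapln2 values was not tested. Tnr, which oligodendrocytes are known to make, had 40 to 78 counts in the same 3 libraries and 0 to 62 in the other 15.

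**Figure D3:**
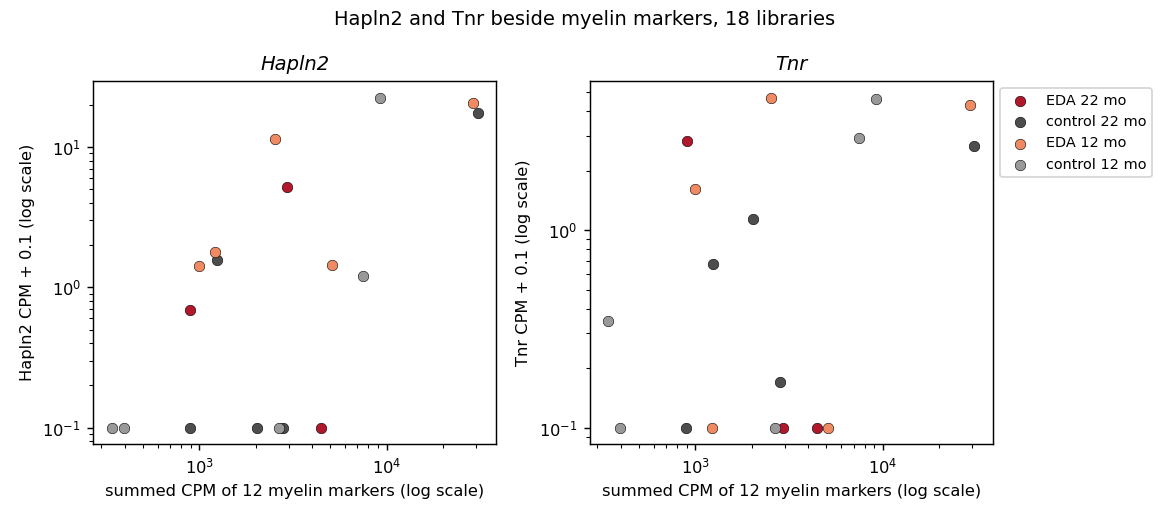
Hapln2 and Tnr in CPM plus 0.1 (vertical, log scale) against the summed CPM of 12 myelin markers (horizontal, log scale), 1 point per library coloured by label and age. Hapln2 is highest in the 3 libraries at the right of the panel, and points on the bottom line have no reads of the gene.

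Most Hapln2 reads were not placed on its coding transcript. Hapln2-203, which the annotation calls a retained intron, took 61.8% of the expected counts summed over libraries, against 27.1% on its protein-coding transcript. Reads on the coding transcript were found in 6 libraries and on Hapln2-203 in 10. For Tnr the short models weighed on the TPM scale: transcripts under 1000 nt took 14.0% of its counts but 73.0% of its TPM. Thus control 22-month replicate 4 had 1.54 TPM from 9 Tnr counts, while control 22-month replicate 3 had 0.33 TPM from 40 counts. Tnr is given in counts for that reason.

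Tnr (chromosome 1) had 0, 37 and 0 counts in EDA-labelled libraries at 22 months, against 15, 0, 40, 9 and 1 in control-labelled libraries. At 12 months it had 0, 22, 78, 62 and 0 counts in EDA-labelled libraries, against 44, 59, 0, 0 and 4 in control-labelled libraries. Each group held libraries without a read. The log2 fold changes between labels were -0.02 ± 2.12 at 22 months and 0.25 ± 1.83 at 12 months for Tnr, and -0.77 ± 2.24 and 0.42 ± 1.88 for Hapln2. With errors near 2 log2 units, changes of several fold in these genes were not detectable given the spread between these libraries.

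Cd44 (chromosome 2), the hyaluronan receptor, had the largest fitted difference of the 6 tested members between labels at 12 months in edgeR with the 4 groups alone, without passing the test. With voom quality weights Hapln2 was further apart, at 2.96 ± 1.79 against 1.54 ± 0.54 for Cd44 (limma, adjusted p = 0.769 and 0.542). With the covariates tried, Hapln2 was also further apart with myelin markers (1.79) and with Xist against Y-linked genes (2.92), both chosen after seeing the data, and Tnr was with the share of ENSMUSG00000119584, an abundant unnamed gene (1.68 against 0.95 for Cd44). At 12 months Cd44 had 6.31, 5.81, 7.77, 13.9 and 6.06 TPM in EDA-labelled libraries, against 10.7, 3.83, 1.96, 1.18 and 2.04 TPM in control-labelled libraries. At 22 months it had 5.0, 8.1 and 7.19 TPM in EDA-labelled libraries, against 6.29, 2.3, 2.69, 6.5 and 6.68 TPM in control-labelled libraries. At 12 months 4 of 5 control-labelled libraries lay below every EDA-labelled one, and control replicate 1 lay above 4 of them.

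The fitted log2 fold change of Cd44 was 1.11 ± 0.59 at 12 months (edgeR, adjusted p = 1) and 0.24 ± 0.67 at 22 months. Averaged over ages it was 0.68 ± 0.44 (edgeR, adjusted p = 1). The difference between the ages was -0.88 ± 0.90, so the ages were not shown to differ. Without control 12-month replicate 1 the 12-month value was 1.77 ± 0.60 (edgeR, adjusted p = 1). With age, Cd44 had -0.37 ± 0.68 under the EDA label and 0.51 ± 0.59 under the control label.

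The libraries highest in Cd44 TPM within each 12-month group were also highest in astrocyte markers. EDA 12-month replicate 4, the highest in Cd44 TPM, had 38821.7 CPM of summed astrocyte markers, against 12852.6 to 14263.7 CPM in the others of its group. Control 12-month replicate 1 had 14865.5 CPM, the highest of its group, against 7601.3 to 12951.8 CPM. Both also belonged to the 5 libraries rich in Xist. Control 12-month replicate 4 had the lowest Cd44 level (1.18 TPM) but the second highest astrocyte sum of its group (12951.8 CPM). At 22 months EDA replicate 2 was highest of its group in both. Among 22-month controls replicate 5 was highest in Cd44 TPM and replicate 4 in astrocyte markers. Gfap was the largest part of these sums, with a median of 9725.6 CPM against 1220.7 CPM for Slc1a3, the next marker. The part of astrocyte content in the Cd44 values was not tested. With a term for Xist against Y-linked genes, chosen after seeing the data, the 12-month difference was 1.35 ± 0.61 (edgeR, adjusted p = 1).

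**Figure D4:**
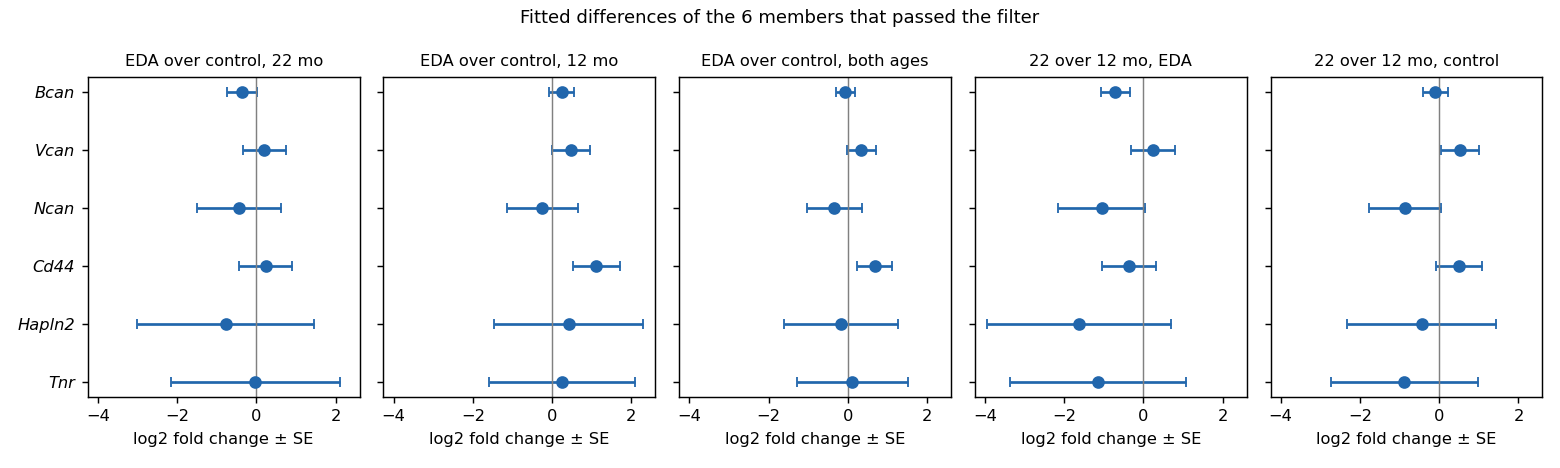
Fitted log2 fold change with its SE for the 6 members that passed the filter on low counts. There is 1 panel for each comparison except the interaction, and the grey line marks no difference. Errors are narrowest for Bcan and reach about 2 log2 units for Hapln2 and Tnr, and no value passed adjustment over all genes.

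Read together, the members leaned in different directions by comparison. Between labels, the median log2 fold change of the 6 tested members was -0.19 at 22 months and 0.33 at 12 months, against -0.07 and -0.01 over all 15118 genes. With age it was -0.88 under the EDA label and -0.27 under the control label, against -0.06 and 0.02 over all genes. For the interaction all 6 tested members were below 0, where 47.2% of all genes were above it, with a median of -0.45 against -0.07 over all genes. The 12 myelin markers, none of which passed the test, had medians further from 0, at -1.57 at 22 months and 1.16 at 12 months between labels, -1.91 under the EDA label and 0.89 under the control label with age, and -2.77 for the interaction. All 12 lay on the same side of 0 in each of these comparisons. Single libraries stood far above their groups in the summed myelin markers. Control 22-month replicate 3 had 30772.2 CPM (others 895.3 to 2816.6), and EDA 12-month replicate 3 had 29085.4 CPM (others 993.4 to 5114.4). Group medians were 2944.2 CPM (EDA) and 2039.1 CPM (control) at 22 months, and 2541.8 and 2668.7 CPM at 12 months. These group medians did not follow the fitted directions. The part of myelinated tissue in the members' values was not tested. With age in the EDA-labelled libraries 5 of 6 members were below 0 and Vcan was above it, where 46.9% of all genes were above 0. These comparisons share groups, so their values are not independent of each other.

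The isoform tables estimate which kinds of versican and CD44 were present. Shares are percent of the gene's TPM and are estimates, because RSEM divides reads among overlapping isoforms. V1, with the beta exon alone, had reads in all 18 libraries and a median share of 39.4% (range 11.8% to 100%). V0, with both long exons, had a median of 5.5%, and V2, with the alpha exon alone and known as the versican of mature white matter, had a median of 0 and was found in 8 libraries. V3 was found in 9 libraries with a share of up to 60.5%, and partial models took a median of 25.7%. In expected counts, which are not scaled by length, the medians were 62.6% for V1, 13.2% for V0 and 5.5% for partial models.

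The share of versican with the beta exon averaged 60.8% ± 40.5 (SD, n = 3) under the EDA label and 54.5% ± 25.7 (SD, n = 5) under the control label at 22 months (exact permutation p = 0.857). The 12-month averages were 34% ± 17.8 under the EDA label and 49.5% ± 13.8 under the control label (SD, n = 5 each, exact permutation p = 0.151, adjusted p = 0.714 over 8 isoform tests). For the alpha exon the share averaged 7.7% ± 3.9 (SD, n = 3) under the EDA label and 7.0% ± 7.1 (SD, n = 5) under the control label at 22 months (exact permutation p = 0.875). Its 12-month averages were 7.7% ± 5.0 under the EDA label and 17.2% ± 16.2 under the control label (SD, n = 5 each, exact permutation p = 0.294, adjusted p = 0.783). The high value among controls was 42%, in replicate 2, one of the 3 libraries rich in myelin markers. The next was 25.4%, in replicate 5, which had the lowest myelin marker sum of all libraries (341.8 CPM). The other libraries rich in those markers, EDA 12-month replicate 3 and control 22-month replicate 3, had 14.2% and 16.4%.

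**Figure D5:**
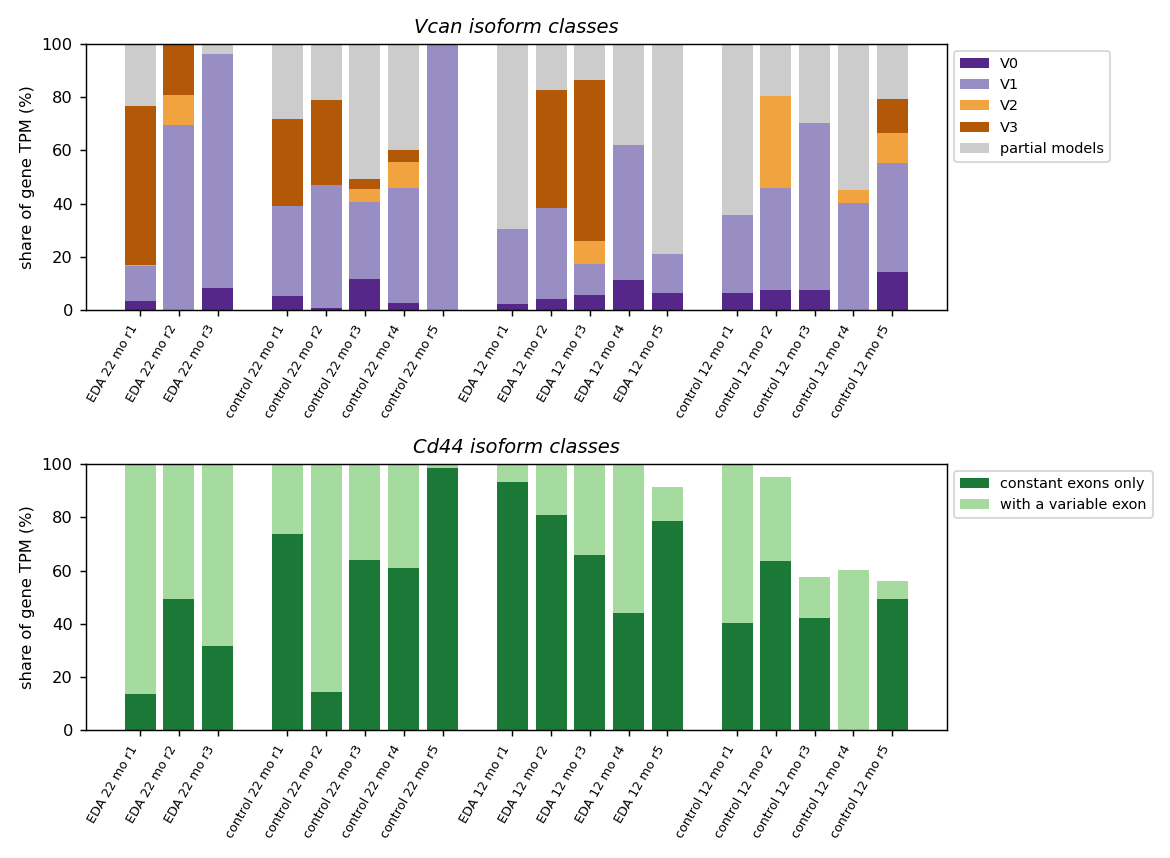
Share of Vcan TPM (top) and Cd44 TPM (bottom) by isoform class in each library, in percent; Cd44 bars that stop short of 100 have the rest on transcripts of neither class. V1 is present in every library and V2 in 8, and the Cd44 classes vary within each group.

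Cd44 with constant exons only, the standard form, had a median share of 55.2% and reads in 17 of 18 libraries. Forms with a variable exon took 68.4% ± 17.7 (SD, n = 3) under the EDA label and 37.7% ± 30.6 (SD, n = 5) under the control label at 22 months. Every EDA-labelled library was between 50.8% and 86.2%, and the controls ran from 1.5% to 85.6%, so the groups overlapped (exact permutation p = 0.179, adjusted p = 0.714). At 12 months they took 25.8% ± 19.7 under the EDA label and 34.7% ± 24.7 under the control label (SD, n = 5 each, exact permutation p = 0.548). Per library these shares rest on 28 to 333 Cd44 counts.

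Brevican is known in a secreted form and in a shorter form anchored in the membrane, which ends in an intron. The coding transcript of 14 exons and 3141 nt took a median of 83.8% of Bcan TPM. Transcripts that end in the intron after exon 8 had reads in 15 of 18 libraries; whether they encode the anchored form was not settled from the annotation. These took 5.5% ± 7.5 (SD, n = 3) under the EDA label and 13.5% ± 16.8 (SD, n = 5) under the control label at 22 months (exact permutation p = 0.482). At 12 months they took 7.4% ± 4.4 under the EDA label and 9.4% ± 7.5 under the control label (SD, n = 5 each, exact permutation p = 0.611). All 8 isoform comparisons were two-sided, and the smallest adjusted p among them was 0.714.

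Genes that make, bind or cut this matrix were read from 7 lists, of which 95 genes were tested, and 0 passed adjustment in any comparison (edgeR). Of these 95, 5 were higher and 0 lower in EDA-labelled libraries at an unadjusted p under 0.05 with the ages averaged, and the shares of all genes were 2.75% and 2.01%. Median log2 fold changes of the 95 were -0.03 with ages averaged, -0.03 at 22 months and 0.1 at 12 months.

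Among binding partners of hyaluronan and lecticans, 2 of 9 tested genes were higher at that unadjusted threshold. Itih3, a heavy chain of inter-alpha-inhibitor that is known to be attached to hyaluronan, had a log2 fold change of 1.84 ± 0.70 (edgeR, adjusted p = 1), and Habp4 had 0.55 ± 0.23. Layn, a hyaluronan receptor, had 0.85 ± 0.61. Hapln3, the link protein beside Acan, was at 0 counts in all libraries. Among hyaluronan synthesis and turnover genes 8 of 10 were below 0 (46.8% of all genes were above it), with Hyal3 at -1.03 ± 1.09 and the synthase Has1 at -1.01 ± 1.41.

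Of 14 lectican-cleaving proteases and their inhibitors, 8 were above 0, and Adamts1, a protease known to cut lecticans, had 0.74 ± 0.33 (edgeR, adjusted p = 1). Timp2, an inhibitor of metalloproteinases, had 0.34 ± 0.25 and Adamts9 had 1.16 ± 1.09. Of 22 genes of chondroitin sulfate synthesis and sulfation 15 were above 0, with Fam20b, a kinase that promotes chain growth, at 0.46 ± 0.23, Chsy1, a chondroitin synthase, at 0.53 ± 0.31 and the sulfotransferase Chst7 at 2.00 ± 1.14. None of the 22 had an unadjusted p under 0.05.

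Tenascins and other neural proteoglycans had 3 of 9 genes above 0, with Tnn at 3.33 ± 1.59, Tnxb at 0.32 ± 0.24 and Cspg5 (neuroglycan C) at -0.40 ± 0.31. Receptors and ligands of perineuronal matrix had 7 of 18 above 0, with the adhesion molecules Ncam1 at -0.44 ± 0.22 and L1cam at -3.63 ± 1.94, and the heparin-binding factor Mdk at 0.69 ± 0.51. Among CD44 partners 5 of 13 were above 0, and 2 had an unadjusted p under 0.05: Msn (moesin), which ties CD44 to actin, at 0.45 ± 0.20, and Spp1 (osteopontin), a ligand of CD44, at 0.79 ± 0.36 (edgeR, adjusted p = 1 for both). Ank3, an ankyrin, had -0.44 ± 0.30.

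The genes whose log2 CPM followed Bcan, Vcan, Cd44 and Ncan most closely over the 18 libraries were also listed, among 7580 genes averaging 2 log2 CPM or more, as a description across libraries that share depth and tissue make-up. For Bcan they were Aebp1 (Pearson r = 0.73, Spearman rho = 0.72), Fscn1 (0.72 and 0.71) and Zfpm1 (0.70 and 0.60). For Vcan they were Cfap161 (0.70 and 0.66), Anxa2 (0.68 and 0.74) and Pfdn6 (0.67 and 0.73). For Cd44 they were Gse1 (0.73 and 0.74), Rhbdd1 (0.70 and 0.66) and Mrpl37 (0.69 and 0.76). For Ncan they were Tmem254a (0.87 and 0.49), Kcnh5 (0.87 and 0.66) and Plppr3 (0.86 and 0.75). None of these 4 members was among the 3 genes nearest to another of them. Hapln2 and Tnr averaged under 2 log2 CPM and were not compared in this way.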

How the data were processed

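Optic nerve head RNA of 18 mouse libraries was read from low-input cDNA without strand, per the labels' protocols. Per the labels' protocols, STAR aligned the reads and RSEM estimated abundance; tool versions and gene models: not given in the sources used here. The build is GRCm39, per the submitters' processing notes. Gene and isoform tables as deposited list expected counts (estimated by RSEM), TPM and FPKM, all made by the authors. Non-whole numbers made up 3.59% of gene counts, so counts were rounded for tests. GENCODE M21 (GRCm38) gave symbols for 52083 of 55416 identifiers, exon structures and coordinates; all 41 member transcripts had the same length there.

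The members and lists were chosen with earlier results of these data known. Groups came from the titles, and replicate numbers follow accession order. Genes passing filterByExpr were TMM-scaled and fitted with 1 mean per group in edgeR 4.0.16 (R 4.3.3), tested on simulated data first. DESeq2 1.42.0, limma 3.58.1, other filters, scalings and covariates and leaving out libraries were alternatives. Isoform shares, for libraries with at least 20 counts of the gene, used exact permutation tests. From each list the 3 genes with the smallest p with ages averaged were named. Library pairs within groups all differed by more than sampling noise (chi-square per degree of freedom at least 42.8). A gene that the naming rule selected is not reported here.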

Additional observations from a re-analysis of the deposited data

Results flagged for a closer look

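Of 31 sets of a group's values examined, 9 held a library far from the others of its group by Dixon's criterion. Chance gives this for about 1 in 20 groups if values follow a normal curve. Many values of Hapln2, Tnr and Hapln4 were 0, so that rate does not apply to them. The EDA 22-month group, with 3 libraries, was too small and was not examined. Cd44 was 13.92 TPM in EDA 12-month replicate 4, with the others of that group between 5.81 and 7.77, and 10.74 TPM in control 12-month replicate 1, with the others between 1.18 and 3.83. Hapln2 was 18.99 TPM in control 22-month replicate 3 (others 0 to 1.0) and 19.3 TPM in control 12-month replicate 2 (others 0 to 0.66), both among the 3 libraries with the most myelin marker RNA. Tnr was 1.54 TPM in control 22-month replicate 4 (others 0 to 0.33), 2.83 TPM in EDA 12-month replicate 3 (others 0 to 0.49) and 4.55 TPM in control 12-month replicate 2 (others 0 to 0.97). These Tnr values lean on short transcript models. In counts the same libraries had 9, 78 and 59, against up to 40, 62 and 44 in the others of each group. Hapln4 was 0.12 TPM in EDA 12-month replicate 5 and 0 in the others. The share of Vcan with the beta exon was 100% in control 22-month replicate 5 and 38.99% to 46.94% in the others, in a library with 255 Vcan counts.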

How the results depend on the processing

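No paired analysis was possible because replicate numbers follow accession order and pair no libraries. No member was called under any alternative run. The number of genes called, 0 with edgeR, was 34 (22 months), 22 (12 months), 28 (ages averaged), 41 (age, EDA-labelled), 23 (age, control-labelled) and 32 (interaction) with DESeq2. It was 1, 2 and 1 for 22 months, 12 months and the interaction with limma voom and quality weights, and 1 at 12 months under a filter at 2 log2 CPM on average. Leaving out single libraries gave 0 to 1 genes at 12 months, the 1 being without EDA 12-month replicate 4, and 0 in the other comparisons.

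Of 298 log2 fold changes of members under settings other than leaving out a library, 275 kept their sign and side of the threshold and 23 changed sign, and the cause was not tested. With voom quality weights, Vcan was -0.49 between labels at 22 months, -0.07 averaged over ages and -0.25 with age in EDA-labelled libraries. Under the same weights Tnr was -0.48 at 12 months, -1.09 averaged and 0.63 with age in controls, Hapln2 was 0.54 averaged and 1.09 with age in controls, and Bcan was 0.01 averaged and 0.06 with age in controls. With the share of ENSMUSG00000119584, an abundant unnamed gene, as a covariate, Vcan was -0.58 at 22 months and -0.28 averaged, Tnr 0.24 at 22 months and Bcan 0.08 averaged. The other covariates were chosen after seeing the data. With myelin markers, Hapln2 was 1.49 at 22 months and 1.64 averaged, Tnr was 1.44 at 22 months, 0.06 with age in EDA-labelled libraries and 0.80 for the interaction, and Ncan was 0.02 at 12 months. With Xist against Y-linked genes, Hapln2 was 1.07 averaged and 2.56 with age in controls, and Tnr 0.92 with age in controls. The Vcan alpha and beta shares at 22 months were -1.8 and -5.3 percentage points (EDA minus control) in isoform expected counts, against 0.7 and 6.3 in TPM.

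Between labels at 22 months, leaving out 1 library at a time moved Ncan between -0.98 and 0.11, Hapln2 between -3.72 and 2.59, Tnr between -6.70 and 0.91 and Vcan between -0.35 and 0.70. At 12 months the ranges were -0.86 to 0.03 for Ncan, -0.54 to 4.55 for Hapln2 and -0.24 to 1.26 for Tnr. Averaged over ages they were -0.12 to 0.08 for Bcan, -1.65 to 1.89 for Hapln2 and -3.23 to 0.62 for Tnr. With age in EDA-labelled libraries the range was -0.32 to 0.73 for Vcan. With age in controls they were -0.29 to 0.18 for Bcan, -3.79 to 3.70 for Hapln2 and -1.80 to 0.13 for Tnr. For the interaction they were -0.73 to 0.42 for Ncan, -5.32 to 2.17 for Hapln2, -6.96 to 0.66 for Tnr and -0.84 to 0.21 for Vcan. Isoform share differences moved, in percentage points, for Vcan with the alpha exon at 22 months between -1 and 3.1, Vcan with the beta exon at 22 months between -11.4 and 28.4 and Bcan ending in the intron after exon 8 at 12 months between -4.3 and 0.3.

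In the settings run, Cd44 between labels stayed above 0 (0.01 to 0.47 at 22 months, 0.86 to 1.77 at 12 months), and Bcan with age in EDA-labelled libraries stayed below 0 (-0.81 to -0.60). Errors were widest for Hapln2, Tnr and Ncan, whose counts ran from 0 to 377, 0 to 78 and 0 to 471 between libraries, and the part of depth in them was not tested. Acan and Hapln1, at 0 counts in all libraries, could not be tested. Hapln4 entered only the edgeR run without a filter on low counts. There its log2 fold change between labels averaged over ages was 2.77 (edgeR, unadjusted p = 0.0164, adjusted p = 0.587). That value rests on 2 counts in EDA 22-month replicate 2 and 4 in EDA 12-month replicate 5.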
